A study of Homo sapiens with 2 samples.

Results

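The zinc finger gene mRNAs described here are those of ZNF571, ZNF260, ZSCAN23, ZCCHC3, ZBTB24 and ZNF709. They were taken by symbol alone, as the listed genes whose names start with ZNF, ZBTB, ZSCAN or ZCCHC followed by a digit, and they make up 6 of the 104 genes in the authors' RIP-seq table. RIP-seq (RNA immunoprecipitation and sequencing) recovers RNA together with a protein by means of an antibody and then sequences it. The study asked which mRNAs are clients of SYNJ2BP, a tail-anchored PDZ protein of the outer mitochondrial membrane (OMM). The SYNJ2BP IP is 1 library from an immunoprecipitation (IP) with an antibody against endogenous SYNJ2BP, and the control is 1 library from a nonspecific immunoglobulin (IgG). Both were made from HEK293T cells, an established transformed human embryonic kidney line, and the labels name no genetic change or treatment in either group. RNA from before the immunoprecipitation was not analysed here, so that a high level of an mRNA in the cells and its recovery with SYNJ2BP cannot be told apart.

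Zinc finger proteins hold zinc ions in small folds that touch DNA, RNA or other proteins. The C2H2 kind, named after the 2 cysteines and 2 histidines that grip the zinc, forms the largest family of human DNA-binding proteins, and most of its genes sit in clusters that arose by repeated duplication, many of them on chromosome 19. ZNF571, ZNF260 and ZNF709 carry arrays of such fingers. ZSCAN23 joins C2H2 fingers to a SCAN domain, a module through which these proteins pair with one another. ZBTB24 joins them to a BTB domain, another pairing module, and its loss causes a form of the ICF syndrome of immunodeficiency and unstable centromeres. ZCCHC3 differs from the others, as its fingers are zinc knuckles of the CCHC kind that grip nucleic acid, and it assists sensors of viral DNA and RNA. None of the 6 encodes a protein known chiefly as mitochondrial.

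The table lists gene-level FPKM, a count of fragments corrected for the length of the transcript and for the number of mapped reads. All 104 genes were higher in the SYNJ2BP IP, by a plain ratio of at least 84.8, so that being higher there is a property of the list and not of the zinc finger genes. As each antibody gave a single library, no spread between replicates exists, and the values carry neither a test nor an error. The list is only part of each library, which leaves the depth unknown. Of 5 genes commonly expressed in HEK293T cells that were looked for (VIM, KRT8, KRT18, NEFL and NEFM), 0 are in the table, so the cell line could not be checked against its own transcripts.

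The 6 mRNAs fell into 3 with a high and 3 with a low level in the SYNJ2BP IP. For ZNF571, the SYNJ2BP IP gave 134.9 FPKM and IgG gave 1.24 FPKM. It ranked 3 of 104 in both libraries, so that the zinc finger mRNA with most signal in the SYNJ2BP IP was also among the highest of the list in the control. For ZNF260, whose protein was described in rat heart muscle cells as a partner of GATA4, the SYNJ2BP IP gave 74.0 FPKM, at rank 8, and IgG gave 0.262 FPKM, at rank 18. ZSCAN23 reached 25.6 FPKM in the SYNJ2BP IP, at rank 28, against 2.3e-09 FPKM in IgG. This IgG value is a number near 0 and not a measured level.

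The other 3 lay near the bottom of the list. ZCCHC3, the co-sensor with zinc knuckles, reached 4.30 FPKM in the SYNJ2BP IP, at rank 84, against 8.1e-06 FPKM in IgG. ZBTB24, the ICF syndrome gene, reached 2.11 FPKM in the SYNJ2BP IP, at rank 91, against 0.00591 FPKM in IgG. ZNF709 reached 1.30 FPKM in the SYNJ2BP IP, at rank 98, against 1.1e-153 FPKM in IgG, where the value lies far under anything that sequencing could resolve. The highest and the lowest of the 6 differed 103.6-fold in SYNJ2BP IP FPKM, and 55 other listed genes lay between ZSCAN23 and ZCCHC3.

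**Figure D1:**
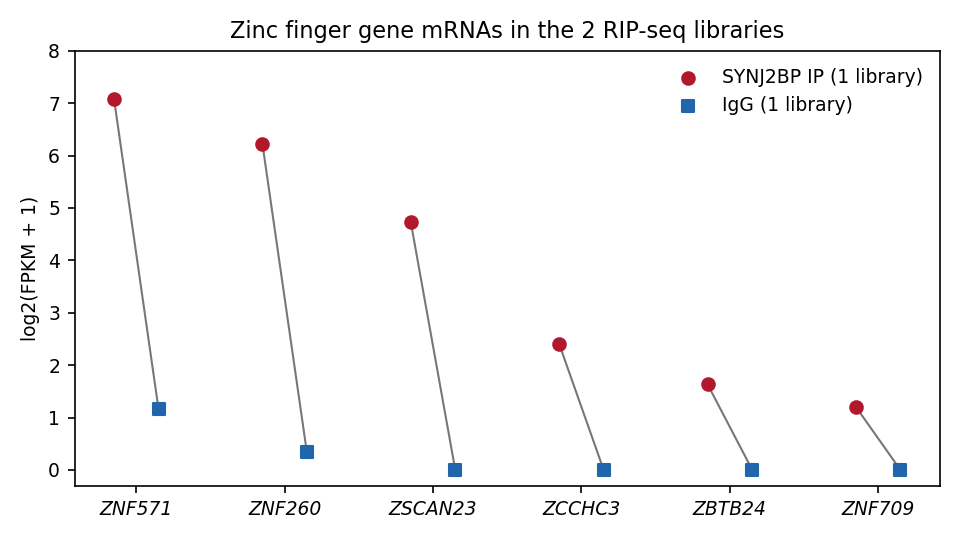
Level of each zinc finger gene mRNA as log2(FPKM + 1) in the SYNJ2BP IP (circles) and in IgG (squares), 1 library each, with a line joining the 2 values of a gene. The IgG squares of ZNF571 and ZNF260 stand above 0, at FPKM of 1.24 and 0.262, and the other 4 lie at the baseline.

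The zinc finger genes lay within the range of the rest of the list, with 1.30 to 134.9 FPKM in the SYNJ2BP IP against 0.619 to 1842 FPKM for the other 98 genes. The median SYNJ2BP IP FPKM was 14.9 for the 6 zinc finger genes and 12.2 for the other 98. An FPKM of at least 50 was reached by 2 of the 6, beside 11 of the other 98 (11.2%), and 3 of the 6 lay under an FPKM of 5, beside 20 of the 98 (20.4%), counts too small to set the group apart. When FPKM was summed over the list, the 6 held 4.84% of the sum in the SYNJ2BP IP and 5.51% of the sum in IgG. ZNF571 and ZNF260 alone made up 86.3% of the zinc finger sum in the SYNJ2BP IP and 99.6% of it in IgG, so these sums speak mainly for a pair of genes.

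Of the 6 mRNAs, 4 were listed near 0 in IgG, a term used here below 0.01 FPKM. This is 66.7% of the zinc finger genes, and the share over all listed genes was 65.4% (68 of 104). The IgG values of ZSCAN23, ZCCHC3 and ZNF709 were also under 0.001, which is what a single fragment would amount to on a 10 kb transcript among 100000000 mapped fragments. ZBTB24 lay between these limits. For these 4 genes the size of a ratio between the SYNJ2BP IP and IgG was therefore not read.

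A ratio could be read for ZNF571 and ZNF260. It was 108.5 for ZNF571 and 282.8 for ZNF260, at ranks 20 and 7 of the 36 listed genes that reached 0.01 FPKM in IgG, whose median ratio was 112.5. ZNF571 had 1.82 times the SYNJ2BP IP FPKM of ZNF260 but 4.75 times its IgG FPKM, which places ZNF260 higher by ratio and ZNF571 higher by level. With a single library each, the order of the pair by ratio rests on 2 small IgG values and has no replicate check.

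On the log2 scale, 1 was added to each FPKM before the logarithm, which understates the difference of low genes. The log2 difference, SYNJ2BP IP minus IgG, was 5.92 for ZNF571 and 5.89 for ZNF260, at ranks 7 and 8 of 104. It was 4.73 for ZSCAN23, at rank 27. ZCCHC3 followed with 2.41, at rank 84, while ZBTB24 with 1.63 and ZNF709 with 1.20 took ranks 91 and 98. For ZSCAN23, ZCCHC3 and ZNF709 these numbers restate the SYNJ2BP IP level to the digits printed, and for ZBTB24 the IgG value takes off 0.0085.

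On this scale a difference of 4-fold or more in favour of the SYNJ2BP IP was found for 4 of the 6, beside 83.7% of all listed genes. A difference of 8-fold or more was found for 3 of the 6, beside 67.3%. ZBTB24 and ZNF709 were the genes under 4-fold. With so few genes, 1 gene moves these shares widely, and nothing is read from the gap to the list. The median log2 difference was 3.57 for the zinc finger genes and 3.72 for the other 98.

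**Figure D2:**
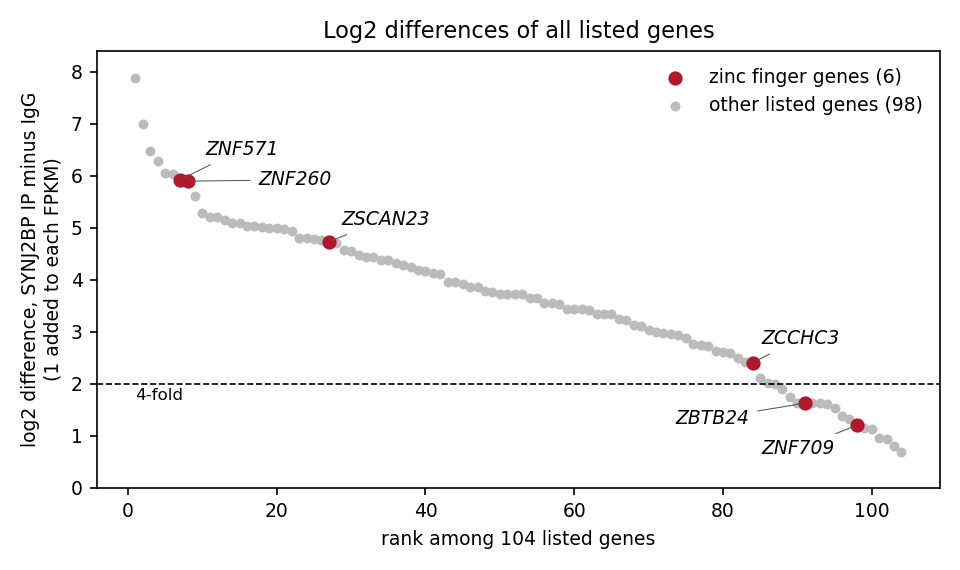
Log2 difference (SYNJ2BP IP minus IgG, 1 added to each FPKM) of all 104 listed genes in rank order, with the 6 zinc finger genes in red and the other 98 in grey. ZNF571, ZNF260 and ZSCAN23 lie at ranks 7, 8 and 27, and ZCCHC3, ZBTB24 and ZNF709 at ranks 84, 91 and 98, with the last pair under the dashed 4-fold line.

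The amount added decides the order of the 6. With 10 added in place of 1, the log2 difference was 3.69 for ZNF571, 3.03 for ZNF260 and 1.83 for ZSCAN23, and ZCCHC3, ZBTB24 and ZNF709 had 0.52, 0.28 and 0.18. With 0.01 added, ZSCAN23 led with 11.32 and was followed by ZCCHC3 with 8.75 and ZNF260 with 8.09. ZNF571 then stood last with 6.75, at rank 82 of 104, behind ZBTB24 with 7.06 and ZNF709 with 7.04. The genes with a measured IgG level are held back by that level, and those listed near 0 in IgG keep rising as less is added. ZNF571 had 6.65 with 0.1 added and 6.75 with 0.01 added, and ZNF260 had 7.68 and 8.09, whereas ZSCAN23, near 0 in IgG, had 11.32 with 0.01 added.

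**Figure D3:**
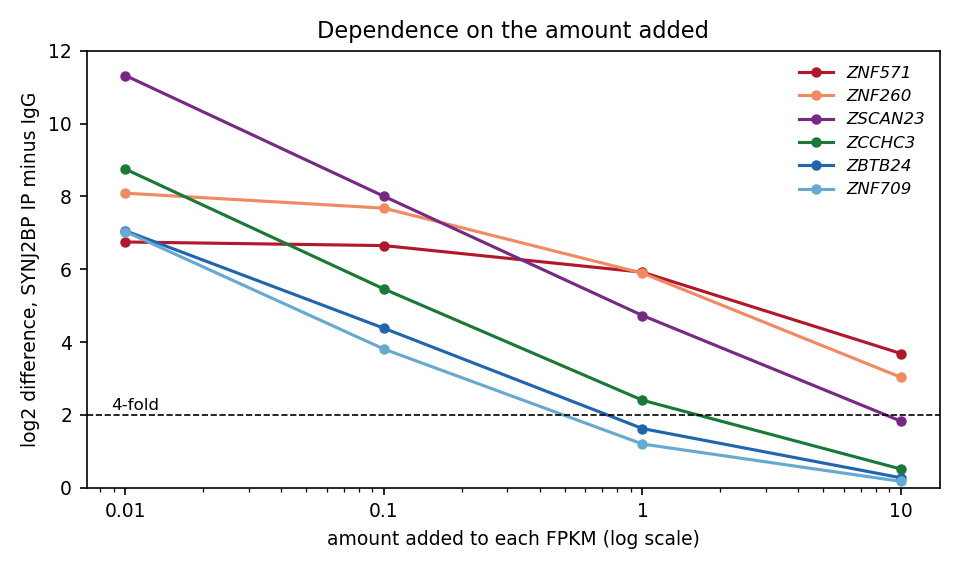
Log2 difference (SYNJ2BP IP minus IgG) of each zinc finger gene against the amount added to both FPKM values, on a log axis. The lines cross, as ZNF571 is highest with 10 added (3.69) and lowest with 0.01 added (6.75), while ZSCAN23 is highest with 0.01 added (11.32).

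The listed gene with the most similar pair of values was found for each of the 6. By distance on log2(FPKM + 1) over the 2 libraries, ZNF571 was nearest to NDUFS7, a subunit of respiratory complex I, at 99.5 FPKM in the SYNJ2BP IP and 1.06 FPKM in IgG. ZNF260 was nearest to DIABLO, a mitochondrial protein released in apoptosis, at 79.7 FPKM in the SYNJ2BP IP and 0.211 FPKM in IgG. The nearest gene was RTN3, a reticulon of the endoplasmic reticulum, for ZSCAN23, and the protocadherin PCDHGB3 for ZCCHC3. ZBTB24 lay closest to the clone-named CTD-2207O23.3 and ZNF709 to SLMO1, a mitochondrial lipid transfer gene. The distances ran from 0.0063 for ZCCHC3 to 0.45 for ZNF571, and with 2 libraries such a likeness means only similar levels. For the 4 genes near 0 in IgG it compares almost solely the SYNJ2BP IP level.

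Other transcription factor genes of the list gave a narrower range. SIM1, KLF6, CREBL2, GRHL1 and HOXD11, picked by name, had SYNJ2BP IP FPKM of 9.83 to 36.4 and log2 differences of 3.44 to 4.79, so that all 5 passed the 4-fold limit, beside 83.7% of all listed genes. The range of the zinc finger genes, 1.30 to 134.9, enclosed theirs on both sides. KLF6, a C2H2 factor whose symbol follows another stem, reached 18.9 FPKM in the SYNJ2BP IP, against 0.0262 FPKM in IgG. It was the only listed gene among 17 other zinc finger stems that were looked for, such as ZFP, ZKSCAN, ZC3H and PRDM.

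Genes tied to zinc finger proteins in general or to single members were looked for by name. Of 6 co-repressor genes that serve KRAB zinc finger proteins, TRIM28 and SETDB1 among them, 0 were listed. Whether the zinc finger genes described here encode KRAB proteins was not examined. Of the 4 ICF syndrome genes DNMT3B, ZBTB24, CDCA7 and HELLS, ZBTB24, itself one of the 6, was the 1 listed. Of 7 partners of ZCCHC3 in nucleic acid sensing, among them CGAS, STING1, RIGI and MAVS, 0 were listed. The table holds 104 genes, beside 20037 protein-coding genes in RefSeq, so that such short lists can be absent from it without any particular pattern. Genes outside the list were not analysed here, and their levels in either library are unknown. None of the 6 zinc finger genes carries the mark that the table gives to genes followed up by CLIP (crosslinking immunoprecipitation), and 11 other listed genes do. The paper picked those 11 from hits related to mitochondria. The missing mark therefore does not speak for or against binding of the zinc finger mRNAs.

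The table places each gene at a locus on hg19, printed here as listed. On chromosome 19, ZNF571 (ENSG00000180479) is listed from 37988062 to 38210691, ZNF260 (ENSG00000254004) from 37001596 to 37119499 and ZNF709 (ENSG00000196826) from 12490002 to 12750912. On chromosome 6, ZSCAN23 (ENSG00000187987) is listed from 28393286 to 28411279 and ZBTB24 (ENSG00000112365) from 109765264 to 109804440. ZCCHC3 (ENSG00000177764) is listed on chromosome 20 from 277736 to 280965. The reference tables used here pair no Ensembl identifier with a symbol, so the identifiers were not checked.

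Of the zinc finger genes, 3 of 6 lay on chromosome 19, against 6 of the other 98 listed genes (6.12%). In the RefSeq annotation of GRCh38.p14, chromosome 19 holds 260 of the 593 protein-coding genes with these symbol stems (43.8%). Such genes made up 2.96% of the 20037 protein-coding genes in RefSeq and 5.77% of the list. The list is a selection made by the authors, and these shares are given without a test. No zinc finger locus overlapped that of another listed gene. ZNF571 and ZNF260 were each other's nearest listed genes, 868.6 kb apart, and also held the 2 highest SYNJ2BP IP levels of the 6.

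The listed loci of the 3 genes on chromosome 19 were much longer than the genes themselves. The locus of ZNF709 spanned 260.9 kb, which is 11.0 times the length of the gene in RefSeq. That of ZNF571 spanned 222.6 kb, or 7.29 times, and that of ZNF260 spanned 117.9 kb, or 6.70 times. ZBTB24 had 39.2 kb, or 1.9 times, ZSCAN23 had 18.0 kb, or 0.815 times, and ZCCHC3 had 3.23 kb, or 1.17 times. The median of this ratio over the 86 other listed genes with a length in RefSeq was 1.18, and 12 of those 86 were at or above the value of ZNF260. Some listed genes had the same locus length, as COG8 and RP11-343C2.12 with 303.0 kb. A listed locus may therefore span more than 1 gene.

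These long loci lie where related genes stand side by side. Of the 10 nearest protein-coding genes of ZNF260 in RefSeq, 5 on each side, 10 are zinc finger genes by symbol, with ZNF566 and ZNF529 next to it. ZNF709 has 8 of 10, between ZNF443 and ZNF564, and ZNF571 has 7 of 10, between ZNF540 and ZFP30. ZSCAN23 has 5 of 10, next to ZSCAN12 in the cluster beside the histone and HLA genes. ZCCHC3, between C20orf96 and SOX12, and ZBTB24, between MICAL1 and AK9, have 0 of 10. In RefSeq, ZNF571 overlaps ZNF540, the antisense gene ZNF571-AS1 and the pseudogenes MTND4P41, MTND5P45 and MTCO1P41. ZBTB24 overlaps MICAL1. Whether fragments were counted by strand or how fragments matching several zinc finger genes were shared among them is not stated in the paper, labels or file. The levels of ZNF571, ZNF260, ZNF709, ZSCAN23 and ZBTB24 are uncertain to that extent. The part of neighbouring or overlapping genes and pseudogenes in them was not tested.

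**Figure D4:**
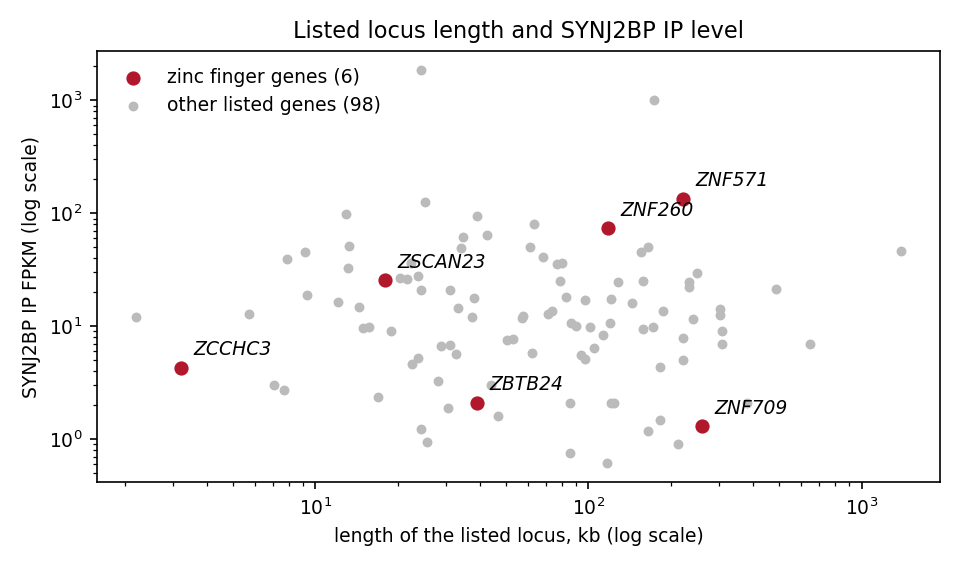
SYNJ2BP IP FPKM against the length of the listed hg19 locus in kb, both on log axes, for the 6 zinc finger genes (red) and the other 98 listed genes (grey). ZNF571 and ZNF709 have long loci of 222.6 and 260.9 kb and lie at opposite ends of the zinc finger levels, at FPKM of 134.9 and 1.30.

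Across the listed genes, locus length and SYNJ2BP IP level did not rise together. ZNF571 and ZNF709, with the longest loci of the 6, had the highest and the lowest SYNJ2BP IP FPKM. Spearman's rho between locus length and SYNJ2BP IP FPKM was -0.029 over the 6 genes and -0.091 over all 104, given as a description across genes of 1 library that are not independent replicates. What neighbouring genes within a locus add to a level was not tested.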

How the data were processed

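RIP-seq libraries of the SYNJ2BP IP and of IgG, 1 each, were analysed from HEK293T cells, prepared with a stranded total RNA kit. The FPKM values were made and deposited by the authors for 104 listed genes. According to the submitters' processing notes, HISAT2 2.0.4, cutadapt 1.9.3, Cuffdiff 2.2.1, Cufflinks and the build hg19 were used, with no roles stated, and the gene annotation and rule of listing are not given in the sources used here. A deposited mark for CLIP follow-up was used, and the authors' fold change column was not.

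Log2 differences were calculated with 1 added to each FPKM and ratios without addition. No test was possible. Genes were named as all zinc finger genes by symbol, the listed gene nearest to each in both libraries, 5 other transcription factor genes and RefSeq neighbours. The members, lists and alternatives were chosen with earlier results of these data known. RefSeq (GRCh38.p14) supplied names, gene order and gene lengths only, and matched all 6 symbols. Python 3.11.15, numpy 2.4.6, pandas 2.3.3 and matplotlib 3.10.9 were used, and the log2 formula was tested on simulated data with known differences.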

Additional observations from a re-analysis of the deposited data

How the results depend on the processing

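No paired analysis was possible because neither antibody has a second library. The number of zinc finger genes at least 4-fold higher, 4 of 6, was 2 with 10 added in place of 1 and 6 with 0.1 or 0.01 added. It was also 6 at a limit of 2-fold, which 100 of the 104 listed genes passed. The number near 0 in IgG, 4 of 6, was 1 of 3 among genes with at least 5 FPKM in the SYNJ2BP IP, and ran from 3 to 5 over IgG limits of 0.001 to 1. At the limit of 0.001 it was 3 of 6, beside 64 of the 104 listed genes. Shares over all listed genes at the other amounts added and IgG limits are not given here, so nothing about the group is read from these counts. The median log2 difference, 3.57, was 6.05 with 0.1 added, 7.57 with 0.01, 1.17 with 10, 5.89 among genes with at least 5 FPKM in the SYNJ2BP IP, 4.73 without ZCCHC3 and 4.28 with KLF6. The median of the zinc finger genes minus that of the other listed genes, -0.15, was -0.31 with 0.1 added, -0.96 with 0.01 and -0.20 without clone-based and readthrough names. It changed sign to 0.021 with 10 added, 1.86 among genes with at least 5 FPKM in the SYNJ2BP IP, 1.01 without ZCCHC3 and 0.56 with KLF6, so that no direction is given for the group. With 5 or 7 genes the median moves to another gene, by construction. The plain ratios of ZNF571 and ZNF260 were 60.6 and 59.5 with 1 added to both values, without the gap between them, but 100.5 and 204.9 with 0.1 added and 107.6 and 272.4 with 0.01 added. The depth of both libraries is unknown, and what it limits was not assessed.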
